A study of Mus musculus with 24 samples.

Results

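The subject is the cytoplasmic ribosomal protein genes in RNA that mouse embryonic stem cells made during short labelling windows. Members are the protein-coding genes whose symbols are Rpl, Rps or Rplp with a number, or Rpsa, with an optional a, x or l at the end, leaving out pseudogenes, the Rps6 kinases and Rps27l, and with a deposited value other than 0 in at least 1 column. The rule found 79 of 56941 gene lines, 30 of the small subunit and 49 of the large one, spread over 19 chromosomes. It also takes in Rpl3l, Rpl10l and Rpl39l, paralogs known from muscle or testis, and it misses some core proteins by name (Rps3a1, Fau, Rack1).

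A ribosome holds 1 copy of nearly every ribosomal protein beside its rRNAs, and growing cells spend much of their transcription on these genes. Their mRNAs begin with a C and a run of pyrimidines, the 5′ terminal oligopyrimidine (TOP) motif, through which mTORC1 and LARP1 control translation. Many of the genes are short and carry snoRNAs in their introns, and the proteins are built into ribosomes in the nucleolus with the help of biogenesis factors and dedicated chaperones. Shortage of single ribosomal proteins causes Diamond-Blackfan anaemia in humans.

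Cells of the E14TG2a line took up 5-ethynyl uridine (EU), a uridine analog that RNA polymerases use, at 1 mM during windows of 10, 20, 40 or 60 min. Labelled RNA was captured and sequenced, after equal addition of EU-labelled Drosophila RNA. The cells lacked the C-terminal disordered region of ALKBH5 (Alkbh5 del-cIDR, here dcIDR), had an Alkbh5 knockout (KO) or were unmodified (WT). ALKBH5 takes the N6-methyl mark off adenosines in RNA. All 3 genotypes grew with serum, LIF, the MEK inhibitor PD0325901 and the GSK3 inhibitor CHIR99021. Each genotype and time had 2 libraries, 24 in all, with 3129083 to 22159832 reads over genes and 6037 to 23382 spike-in reads. The labels describe dishes seeded at equal density the day before labelling, and do not say how many clones a genotype stands for or whether replicates were separate cultures, so the p-values rest on the spread among the libraries alone, which may be technical.

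Reads per library were worked back from the deposited log2 ratios. A gene's level stands for its reads once a library is brought to 11714 spike-in reads, and relative values are log2(level + 1) minus the median of the 22448 tested genes in the same library. Embryonic stem cell markers took 0.374 to 0.427% of gene reads in dcIDR, 0.368 to 0.410% in KO and 0.389 to 0.417% in WT. Those of fibroblasts (feeder cells) took at most 0.00964% in any library, and no marker was at 0 in all libraries. Neural markers took 0.0106 to 0.0144% in dcIDR, 0.0265 to 0.0367% in KO and 0.0154 to 0.0185% in WT. The 3 Zscan4 markers of 2-cell-like cells took 0.00138 to 0.00169% in dcIDR, 0.00806 to 0.0105% in KO and 0.00491 to 0.00595% in WT. Their part in the differences given here was not tested, and in bulk RNA fewer cells of a type and less RNA per cell cannot be told apart. Relative to the median gene Alkbh5 itself had a dcIDR minus WT difference of −0.46 ± 0.06 (SE, adjusted p = 0.000134) and a KO minus WT difference of −0.60 ± 0.06 (adjusted p = 7.29e-06, limma), while on the spike-in scale neither passed (adjusted p = 0.311 and 0.180). Alkbh5 had 242 to 2269 reads in dcIDR libraries and 340 to 1989 in KO libraries. In the 6 WT libraries where its reads could be told apart it had 361 to 2669. These are raw reads from libraries of unlike depth and labelling time, so the overlap of their ranges cannot show whether the genotypes differ. In 60 members the reads of both WT libraries at 60 min could not be told apart, and that group then entered the fit as 1 mean value that adds nothing to the spread. Such a pair also counts as its mean in ranges and where a genotype is said to lie wholly above or below WT.

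The 5′ ends of these genes were searched for motifs known from ribosomal protein genes. RefSeq promoter windows of GRCm38.p6, reaching from 250 bases before to 50 after each annotated start, were at hand for 59 of the 79 members, with 70 entries. A pyrimidine start, searched as a C at the start or within 2 bases of it and then at least 4 bases that are each C or T on the sense strand, was found in 21 of the 70 (30%), against 8.96% of all 32851 entries. A run of 8 or more pyrimidines within 50 bases of the start, which can overlap that motif, was in 56 (80%) against 35.7%. The ETS core CCGGAAG on either strand was in 25 (35.7%) against 8.86%, the YY1 core AAGATGGC on either strand in 7 (10%) against 2.75%, and the TATA box TATAAA on either strand in 6 (8.57%) against 13.6%. Matches are descriptions of letters and were set against no factor's binding. The windows below run from 40 bases before the annotated start to 20 after it, with runs of 8 or more pyrimidines in capitals. They show genes with a called difference or slope, and 2 paralog pairs.
Rps27 (chr3:90213629-90213688, minus strand): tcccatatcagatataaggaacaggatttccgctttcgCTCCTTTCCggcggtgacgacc
Rpl34, upstream start (chr3:130730379-130730438, minus strand): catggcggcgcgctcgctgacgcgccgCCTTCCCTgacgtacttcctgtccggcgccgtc
Rpl34, downstream start (chr3:130730318-130730377, minus strand): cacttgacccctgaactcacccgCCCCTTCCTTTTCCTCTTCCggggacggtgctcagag
Rpl13 (chr8:123102310-123102369, plus strand): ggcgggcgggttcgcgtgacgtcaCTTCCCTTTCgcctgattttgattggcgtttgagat
Rpl37 (chr15:5116573-5116632, plus strand): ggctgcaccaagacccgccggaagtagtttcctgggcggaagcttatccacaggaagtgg
Rpl39 (chrX:37085203-37085262, minus strand): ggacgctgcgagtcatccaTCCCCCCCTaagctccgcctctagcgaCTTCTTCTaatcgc
Rpl39l (chr16:10170188-10170247, plus strand): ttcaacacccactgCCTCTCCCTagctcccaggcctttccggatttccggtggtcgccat
Rpl10 (chrX:74270776-74270835, plus strand): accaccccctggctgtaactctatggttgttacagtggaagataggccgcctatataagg
Rpl10l (chr12:66284382-66284441, minus strand): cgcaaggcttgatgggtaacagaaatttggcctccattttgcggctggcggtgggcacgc
A run spans the annotated start in Rps27 and in the downstream Rpl34 window. The runs of Rpl13, Rpl39l and the upstream Rpl34 window end before it, Rpl39 has a run on either side, and Rpl37, Rpl10 and Rpl10l have none in the window shown.

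The members gave a sizeable share of the reads over genes. They took 1.48 to 3.54% of gene reads per library, and all 79 passed the filter on low levels. Over all libraries the mean level had a median of 3236 among members, and 75 of them lay above 500. Per kb of annotated exon the median was 1675. The highest mean levels belonged to Rpl4 at the exit tunnel (12003, or 5981 per kb), Rpl5 (11695, or 2983 per kb) and Rpsa, a small subunit protein (9725, or 3068 per kb). Per kb, Rpl36 (7390) and Rplp1 (6706) ranked first, 2 genes picked after their values were seen. Whether reads in introns were counted is not given in the sources used. All per kb values here, and comparisons of genes with and without introns, are uncertain to that extent.

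Low levels were found in the paralogs and a few others. Rpl3l, the muscle paralog of Rpl3, had a level of 20.0 per kb, against 2297 for Rpl3 at the peptidyl transferase centre. Rpl39l had 166 per kb, against 502 for its partner Rpl39, a small protein of the exit tunnel. Rpl10l, a gene with 1 exon of 1023 bases, had 950 per kb, against 1256 for Rpl10, a protein added late to the large subunit.

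Rpl24, which bridges the subunits, had only 95.9 per kb. It overlaps Gm28037 on the same strand, and Rps10 (266 per kb) and Rpl13a (490 per kb) overlap RPS10-NUDT3 and Gm45713 in the same way. No reads were recovered for these 3 partner genes in any library. How shared reads were counted is not given in the sources used here, and its part in these levels was not tested. In all, 24 members overlap another gene on either strand, and 59 have pseudogenes named after them whose sequence can share reads.

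The members took a smaller share of gene reads after 40 and 60 min of labelling than after 10 and 20 min in every genotype. In the order 10, 20, 40 and 60 min, the paired dcIDR libraries held 3.54 and 2.65%, then 2.66 and 2.13%, then 1.88 and 1.74%, and last 1.53 and 1.72%. KO libraries held 2.55 and 2.62%, 2.72 and 2.37%, 2.03 and 1.89%, and 1.48 and 1.66% at the same times, and in WT 2.36 and 2.82%, 3.10 and 2.58%, 2.24 and 1.78%, and 1.63 and 1.61%. In each genotype all 40 and 60 min libraries lay below all 10 and 20 min libraries. For the 60 members whose WT reads at 60 min could not be told apart, the reads were divided by the pair's median ratio. The closeness of 1.63 and 1.61% is therefore no measure of spread. Between 10 and 20 min the group means moved unlike: they were 3.10 and 2.39% in dcIDR, 2.58 and 2.54% in KO and 2.59 and 2.84% in WT. Leaving out Rpl4, the member with most reads, changed the mean share over all libraries to 2.13%, against 2.22% with it.

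The amount captured still grew. Member reads per spike-in read were 7.89 ± 1.39 in dcIDR, 16.5 ± 2.75 in KO and 9.88 ± 0.675 in WT at 10 min (SD, n = 2 each). At 60 min they were 31.3 ± 9.27 in dcIDR, 34.0 ± 0.816 in KO and 29.5 ± 5.64 in WT. The WT reads of 60 members at 60 min were divided by the pair's median ratio, so that SD is no free measure of spread. On the spike-in scale the level rose with labelling time in 79 members in dcIDR, 76 in KO and 79 in WT (limma, adjusted p under 0.05), where 97.2%, 90.5% and 95.5% of all tested genes did. The members' median slope per doubling of minutes was 0.75 in dcIDR, 0.41 in KO and 0.64 in WT, below the medians over all tested genes of 1.03, 0.65 and 0.84. At 10 min the 2 KO libraries held 14.5 and 18.4 member reads per spike-in read, above all dcIDR and WT libraries of that time.

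**Figure D1:**
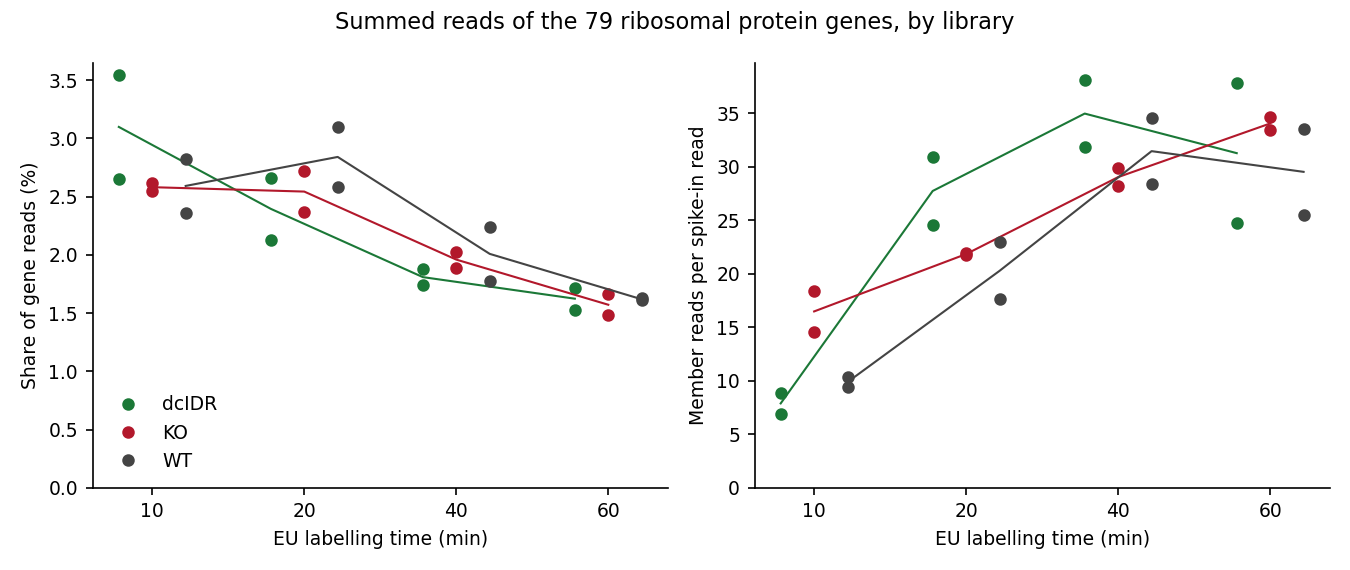
Left, reads of the 79 ribosomal protein genes as a percentage of gene reads; right, the same reads per spike-in read, both against EU labelling time in min, for dcIDR, KO and WT. Points are libraries and lines join the means of 2 libraries. In WT at 60 min the reads of 60 members were divided by the pair's median ratio. The share lies at 1.48 to 1.72% in all 60 min libraries and at 2.13% or more in all 10 and 20 min libraries.

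Relative to the median gene the fall was spread over most members. In dcIDR 57 members fell with labelling time and 2 rose, where 13.8% of all tested genes fell and 29.1% rose (limma, slope per doubling of minutes, adjusted p under 0.05). In KO 34 fell and 0 rose, where 6.66% and 17.8% of tested genes did, and 61 members had an unadjusted p under 0.05. In WT 24 fell and 1 rose, where 9.58% and 24.9% did. The median slope of members was −0.24 in dcIDR, −0.21 in KO and −0.16 in WT, whereas all tested genes had medians of 0.05, 0.03 and 0.04. Of the 62 members that fell in at least 1 genotype, 18 fell in all 3.

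These counts changed with the filter on low levels and with the libraries used. With no filter on low levels 4, 6 and 1 members fell in dcIDR, KO and WT. That setting changes the median gene, the spread limma shares between genes and the number of genes adjusted for. The part of each was not tested. For this fit and those without a single library, the shares of all tested genes are not given here. Without all 10 min libraries 5, 31 and 39 of the 79 members fell, where 1252, 1341 and 2305 of the 22448 tested genes did. Without the first 10 min dcIDR library 19 fell in dcIDR, without the second 10 min KO library 11 fell in KO, and without the second 10 min WT library 9 fell in WT.

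The members with the steepest slopes in WT came from both subunits. Rps20, which sits in the head of the small subunit, held relative log2 values of 5.77 and 5.56 in dcIDR and 5.71 and 5.80 in KO after 10 min, and of 4.65 and 4.80 in dcIDR and 4.69 and 4.82 in KO after 60 min. WT had 5.79 and 5.90 after 10 min and a mean of 4.89 after 60 min. In dcIDR and KO all 10 min libraries thus lay above all 60 min libraries. Both WT libraries at 10 min lay above the mean of the WT pair at 60 min. Its slope was −0.40 ± 0.05 in dcIDR (adjusted p = 6.48e-05), −0.42 ± 0.05 in KO (adjusted p = 0.000141) and −0.39 ± 0.05 in WT (SE, adjusted p = 0.000112, limma).

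Rpl37, a zinc-binding protein of the large subunit, fell in all 3 genotypes, with slopes of −0.39 ± 0.06 in dcIDR, −0.31 ± 0.06 in KO and −0.33 ± 0.06 in WT. Rpl24 fell in all 3 as well, at −0.29 ± 0.07, −0.49 ± 0.07 and −0.27 ± 0.07, and so did Rps28, which lies near the mRNA exit, at −0.37 ± 0.06, −0.21 ± 0.06 and −0.27 ± 0.06. Rps27, a zinc finger protein, fell in dcIDR (−0.35 ± 0.10) and WT (−0.29 ± 0.10), and had −0.28 ± 0.10 in KO (adjusted p = 0.0543).

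At the other end stood Rpl10l, the testis paralog of Rpl10. It rose by 0.21 ± 0.07 per doubling in dcIDR (adjusted p = 0.0183) and by 0.20 ± 0.07 in WT (adjusted p = 0.0347), and had −0.02 ± 0.07 in KO (adjusted p = 0.872). Its partner Rpl10 had −0.04 ± 0.08, −0.12 ± 0.08 and 0.01 ± 0.08 in dcIDR, KO and WT and passed in none. Rpl10a, a protein of the L1 stalk, lay between −0.01 and 0.01 in all 3. Rpl39l had −0.06, −0.21 and 0.03 and passed in none, and Rpl3l fell in KO at −0.36 ± 0.11 (adjusted p = 0.0287).

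Functional groups followed. All 3 genes of the P stalk (Rplp0, Rplp1, Rplp2) fell in dcIDR, with slopes of −0.42 to −0.26, and none passed in KO or WT. Rpl5 and Rpl11, which join the 5S rRNA and can bind MDM2, both fell in dcIDR and WT, and Rpl5 also in KO. Among the 9 members tied to Diamond-Blackfan anaemia 5 fell in dcIDR, 6 in KO and 5 in WT. Of the decoding and mRNA channel proteins Rps3, Rps2 and Rps23, 3 fell in dcIDR, 1 in KO and 2 in WT. At the exit tunnel (Rpl4, Rpl17, Rpl22, Rpl39) 3 fell in dcIDR, 1 in KO and 0 in WT, where slopes ran from −0.26 to −0.09. Rps6, the S6 kinase target, fell in dcIDR at −0.21 and had −0.19 in KO and −0.14 in WT.

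By subunit, the median slope of the 30 small subunit members was −0.21 in dcIDR, −0.20 in KO and −0.16 in WT, where 20, 14 and 12 fell. That of the 49 large subunit members was −0.25, −0.21 and −0.16, where 37, 20 and 12 fell. The shares of all tested genes that fell were 13.8%, 6.66% and 9.58%. The 29 members with a snoRNA inside had medians of −0.24, −0.20 and −0.16, and the 50 without −0.23, −0.21 and −0.16. These subgroups were not tested against each other. Gene length moved with the slope over the genome. Members had a median length of 3289 bases, against 13291 over all tested genes with a length. Other protein-coding genes between 1000 and 3000 bases had median slopes of −0.05 in dcIDR, −0.01 in KO and −0.01 in WT, and the 31 members of that length −0.25, −0.19 and −0.16. For lengths of 3000 to 6000 bases the values were 0.02, 0.03 and 0.05 in 1293 other genes and −0.23, −0.21 and −0.16 in 38 members. The part of length in the result was not tested.

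Lists of other genes of ribosome production are given beside the members, with no test of a difference between lists. Among all tested genes 29.1% rose in dcIDR, 17.8% in KO and 24.9% in WT, and 13.8%, 6.66% and 9.58% fell. Of 55 ribosome biogenesis factors 43 rose and 1 fell in dcIDR, 27 and 0 in KO and 39 and 0 in WT, with median slopes of 0.21, 0.11 and 0.17. Utp15, part of the small subunit processome, rose by 0.45 ± 0.04 in WT (adjusted p = 2.49e-06). Of 16 genes of RNA polymerase I and its factors 10, 7 and 7 rose and 1, 1 and 0 fell in dcIDR, KO and WT. Of 18 genes of mTORC1 signalling and TOP mRNA control 14, 11 and 11 rose and 1, 0 and 0 fell. All 10 transcription factors tied to ribosomal protein promoters rose in WT, Myc by 0.91 ± 0.09. They numbered 9 in dcIDR and 8 in KO.

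The 22 TOP mRNAs of translation factors had median slopes of 0.02 in dcIDR, −0.05 in KO and 0.02 in WT, with 4, 2 and 3 rising and 2, 1 and 1 falling. The 78 mitochondrial ribosomal proteins, whose genes have a median length of 7900 bases, had 0.07, −0.00 and 0.08, with 27, 6 and 18 rising and 0, 1 and 0 falling. In 6 dedicated chaperones of ribosomal proteins 4, 2 and 3 rose and none fell. Of 9 ribosomal proteins that the naming rule misses 4 fell in dcIDR, 2 in KO and 1 in WT, with medians of −0.14, −0.23 and −0.12.

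**Figure D2:**
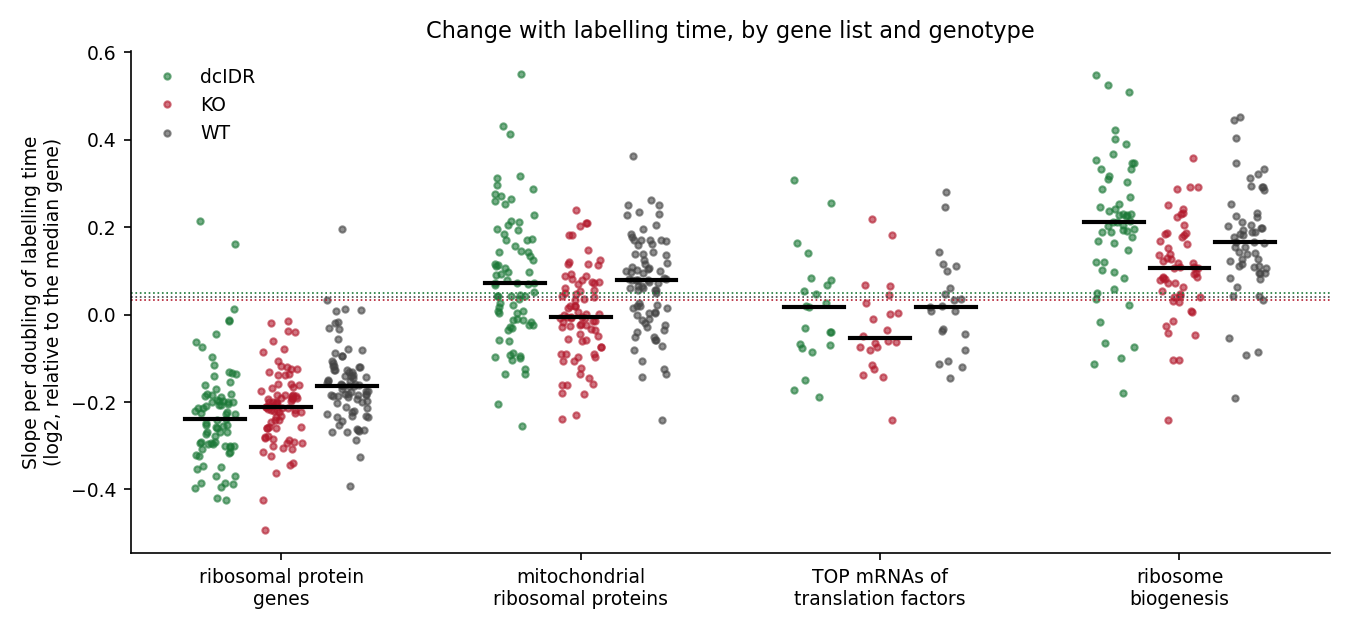
Slope of relative log2 level per doubling of EU labelling time for each gene of 4 lists, in dcIDR, KO and WT. Points are genes, bars are list medians and dotted lines are medians over all tested genes; the ribosomal protein genes centre on −0.24, −0.21 and −0.16 and the ribosome biogenesis factors on 0.21, 0.11 and 0.17.

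Few members passed a test of the slope difference between genotypes. In limma 0 of 79 passed for dcIDR minus WT, where 1.08% of tested genes did, with 1 member at an unadjusted p under 0.05. For KO minus WT 0 passed, where 0.00891% did, with 4 at an unadjusted p under 0.05. For dcIDR minus KO 1 passed, where 7.34% did: Rpl30. The F test over the 4 times called 0 members for dcIDR and WT (2.17% of tested genes, 7 members at an unadjusted p under 0.05), 0 for KO and WT (0.00891%, 1 member) and 1, Rpl29, for dcIDR and KO (4.47%).

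The deposited ratios are the values from which the reads were worked back, and so are no separate evidence. By the authors' deposited table the median member stood 1.85, 2.15 and 1.97 log2 units above its 10 min value at 20, 40 and 60 min in dcIDR, where all tested genes had medians of 2.26, 2.89 and 2.72. In KO the authors' deposited table gives 0.42, 0.82 and 1.04 for the members and 0.42, 1.20 and 1.67 for tested genes, and in WT 1.07, 1.68 and 1.58 against 0.93, 2.01 and 2.09. At 20 min the median member thus lay below the median tested gene in dcIDR, level with it in KO and above it in WT, and at 40 and 60 min below it in all 3. The member with the lowest ratio in WT was Rps20 at each time, at 0.68, 1.09 and 1.02 in the authors' deposited table.

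Between genotypes few members passed. In dcIDR against WT 1 was higher and 6 were lower, where 10.6% and 15.1% of tested genes were. In KO against WT 3 were higher and 4 lower, where 14.8% and 15.6% were. In dcIDR against KO 3 were higher and 5 lower, where 21% and 22.4% were. Each pair of these comparisons shares libraries. The median difference of members was −0.09 for dcIDR minus WT, −0.10 for KO minus WT and 0.00 for dcIDR minus KO, and that of tested genes −0.02, −0.01 and 0.01. These means over 4 times joined unlike values in dcIDR. At 10, 20, 40 and 60 min the median member had 0.15, −0.29, −0.23 and −0.03 for dcIDR minus WT, with 64, 1, 4 and 24 of 79 positive. For dcIDR minus KO it had 0.17, −0.17, −0.14 and 0.12, and for KO minus WT −0.01, −0.11, −0.10 and −0.16. Without the 10 min libraries the median was −0.19 for dcIDR minus WT, −0.12 for KO minus WT and −0.06 for dcIDR minus KO.

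Member values spread more than those of other genes with many reads. Among genes with a mean level from 500 upward the median SE of a genotype difference was 0.0967 in 75 members and 0.0549 in 6169 other genes, of which 34.3% passed in dcIDR against WT and 40.2% in KO against WT. The members shifted together between libraries of 1 group: their median relative value ran from 4.23 to 5.29 over libraries and differed by up to 0.42 within a pair, at 10 min in dcIDR, where 76 of 79 members were higher in the first library. In the fit centred on the median member of each library, a choice made after seeing this shift, 4 members passed in dcIDR against WT (10% of tested genes), 5 in KO against WT (17%) and 7 in dcIDR against KO (28.2%).

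On the spike-in scale the counts moved with the whole transcriptome. In dcIDR against WT 0 members were higher and 0 lower (limma, 1 at an unadjusted p under 0.05), where 5.73% and 2.23% of tested genes were. In KO against WT 6 were higher and 1 lower, where 22.2% and 2.65% were, and in dcIDR against KO 1 was higher and 5 lower, where 6.57% and 17.1% were. The medians of members were 0.08, 0.21 and −0.13, and those of tested genes 0.15, 0.30 and −0.13.

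The largest difference belonged to Rpl39l, the paralog that replaces Rpl39 in the exit tunnel of germ cell ribosomes. Its relative log2 values had a lowest, median and highest of −1.74, −0.77 and −0.36 over 8 KO libraries, against 0.09, 0.36 and 0.88 over 8 WT libraries. In the 8 dcIDR libraries they were 0.02, 0.38 and 0.75. Every KO library thus lay below every WT and every dcIDR library, while dcIDR and WT overlapped. In reads, KO libraries held 24 to 104, dcIDR libraries 40 to 297 and WT libraries 45 to 248.

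The KO minus WT difference of Rpl39l was −1.24 ± 0.15 (SE, adjusted p = 2.81e-05), and dcIDR minus KO was 1.25 ± 0.15 (adjusted p = 1.3e-05, limma). For dcIDR minus WT it was 0.01 ± 0.15 (adjusted p = 0.966). By time, KO minus WT was −1.0, −1.07, −1.14 and −1.76 at 10, 20, 40 and 60 min, past the threshold at each (adjusted p = 0.0482, 0.0394, 0.0332 and 0.00278). The 20 nearest tested genes on chromosome 16 had a median KO minus WT of −0.15. Rpl39, its partner, had −0.05 ± 0.14 for KO minus WT (adjusted p = 0.822) and −0.23 ± 0.14 for dcIDR minus WT (adjusted p = 0.256).

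Rpl10l went the other way in KO. Its relative values had a lowest, median and highest of 1.99, 2.46 and 2.83 in dcIDR, 2.97, 3.16 and 3.35 in KO and 2.48, 2.82 and 3.11 in WT. All KO libraries lay above all dcIDR libraries, and dcIDR lay below WT at each of the 4 times. The difference was −0.39 ± 0.09 for dcIDR minus WT (adjusted p = 0.00718), 0.39 ± 0.09 for KO minus WT (adjusted p = 0.0049) and −0.78 ± 0.09 for dcIDR minus KO (adjusted p = 1.01e-05, limma). The 20 nearest tested genes had medians of −0.28, −0.17 and −0.02 for these comparisons, and all 913 tested genes of chromosome 12 had −0.12, −0.04 and −0.06. Per spike-in read, dcIDR minus WT was −0.22 and did not pass (adjusted p = 0.417). Rpl10l is a retrogene copy of Rpl10 and the treatment of reads that fit both is not given, so its level is uncertain. Rpl10 itself had −0.05 ± 0.11 for dcIDR minus WT and −0.00 ± 0.11 for KO minus WT.

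Rpl3l had relative values of −2.69, −2.04 and −1.49 (lowest, median, highest) in dcIDR, −2.56, −1.69 and −0.74 in KO and −2.61, −2.15 and −1.22 in WT. The groups overlapped, and KO minus WT was 0.31 ± 0.15 (adjusted p = 0.155). Per spike-in read it passed, at 0.62 (adjusted p = 0.0206).

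**Figure D3:**
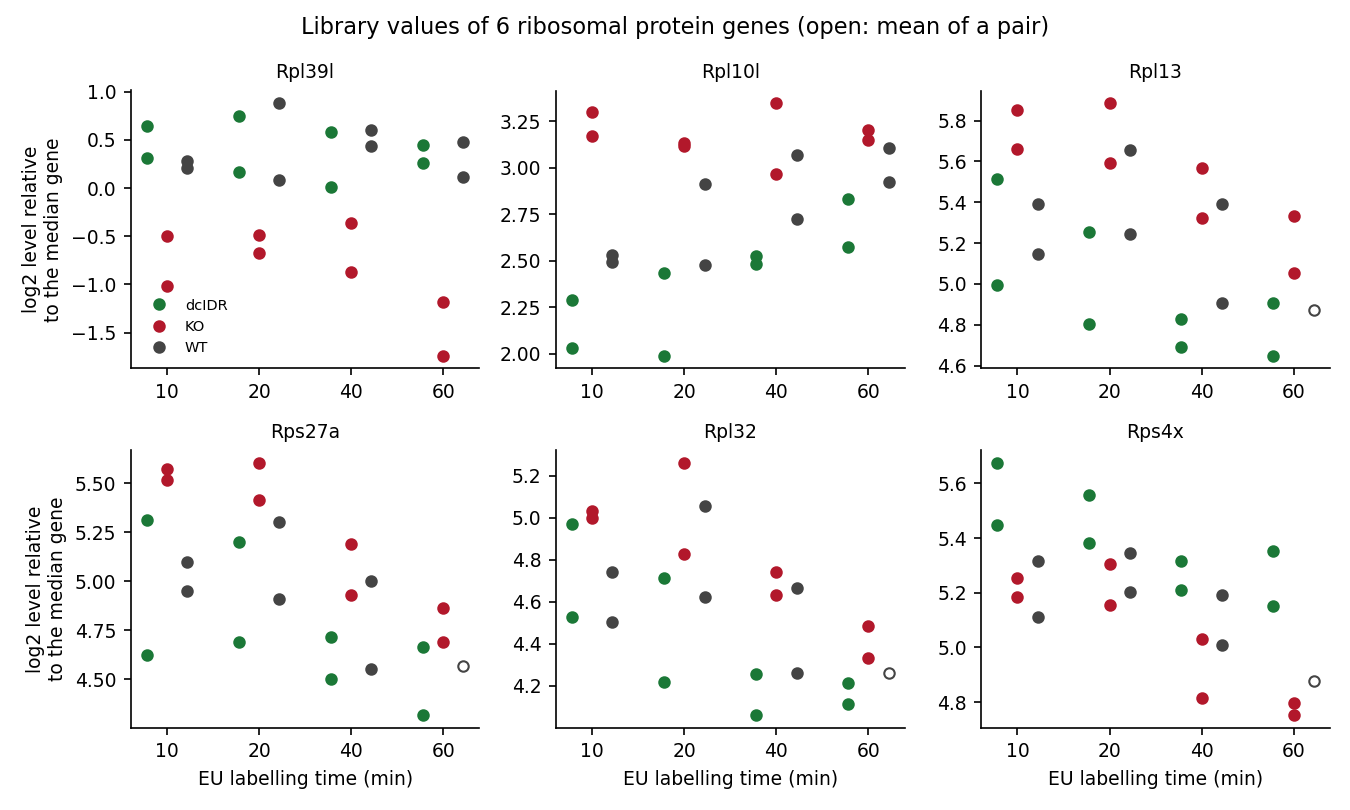
Relative log2 level (log2 of level + 1, minus the median tested gene of the library) of Rpl39l, Rpl10l, Rpl13, Rps27a, Rpl32 and Rps4x against EU labelling time in min, in dcIDR, KO and WT. Filled points are libraries and open points are the mean of a pair whose reads could not be told apart; Rpl39l in KO runs from −1.74 to −0.36 and stays below 0.02, the lowest value in the other genotypes.

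The other 2 members higher in KO lay among neighbours that were mostly higher in KO too. Rpl13, a large subunit protein on chromosome 8, had relative values of 5.05, 5.58 and 5.89 (lowest, median, highest) in KO against 4.87, 5.24 and 5.66 in WT. The ranges overlapped, and KO lay wholly above WT at 2 of 4 times. The difference was 0.35 ± 0.12 (adjusted p = 0.0377, limma), the 20 nearest tested genes had a median of 0.32 and the 1108 tested genes of the chromosome one of 0.33.

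Rps27a, which is made as a fusion with ubiquitin, lies on chromosome 11. It had 4.69, 5.30 and 5.60 in KO against 4.55, 4.95 and 5.30 in WT, and KO lay wholly above WT at 3 of 4 times. The difference was 0.35 ± 0.12 (adjusted p = 0.0423), its 20 neighbours had a median of 0.50 and the whole chromosome one of 0.00. The other 6 members on that chromosome lay between −0.18 and −0.01. Rpl32, the only member on chromosome 6, had 0.24 ± 0.11 (adjusted p = 0.119, limma), with a median of 0.46 in its 20 neighbours, all of them positive. The 1120 tested genes of chromosome 6 had a median of 0.40.

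All 3 members higher in KO lost the call without the 10 min libraries. Rpl13 then had 0.30 (adjusted p = 0.113), Rps27a 0.30 (adjusted p = 0.115) and Rpl10l 0.28 (adjusted p = 0.0849). Rpl13 passed under 23 of 33 alternatives, Rps27a under 17 of 33 and Rpl10l under 33 of 34, and 9 and 15 of the losses of Rpl13 and Rps27a came from leaving out 1 library. Rack1 on chromosome 11, a scaffold on the small subunit that the naming rule misses, also passed in KO, at 0.47 ± 0.09 (adjusted p = 0.00118, limma). The part of these chromosome stretches in the members' differences was not tested.

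Against KO these genes were lower in dcIDR. dcIDR minus KO was −0.58 ± 0.12 for Rpl13 (adjusted p = 0.00127), −0.47 ± 0.12 for Rps27a (adjusted p = 0.00706) and −0.40 ± 0.11 for Rpl32 (adjusted p = 0.009, limma). Their neighbours had medians of −0.37, −0.69 and −0.57, and the tested genes of chromosomes 8, 11 and 6 had −0.46, −0.02 and −0.49. In each of the 3 genes dcIDR lay wholly below KO at all 4 times.

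Rps4x, a small subunit protein on the X chromosome, was higher in dcIDR. Its relative values had a lowest, median and highest of 5.15, 5.37 and 5.68 in dcIDR, 4.75, 5.09 and 5.30 in KO and 4.88, 5.19 and 5.34 in WT. dcIDR lay wholly above WT, and wholly above KO, at each of the 4 times. The difference was 0.27 ± 0.06 for dcIDR minus WT (adjusted p = 0.00679) and 0.35 ± 0.06 for dcIDR minus KO (adjusted p = 0.000538, limma). Its 20 neighbours had medians of 0.66 and 0.71, and the 675 tested genes of the X chromosome 0.26 and 0.29. On the spike-in scale dcIDR minus WT was 0.44 (adjusted p = 0.0742) and dcIDR minus KO 0.21 (adjusted p = 0.328). The other X-linked members, Rpl10, Rpl36a and Rpl39, had −0.05, 0.11 and −0.23 for dcIDR minus WT, and none passed.

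**Figure D4:**
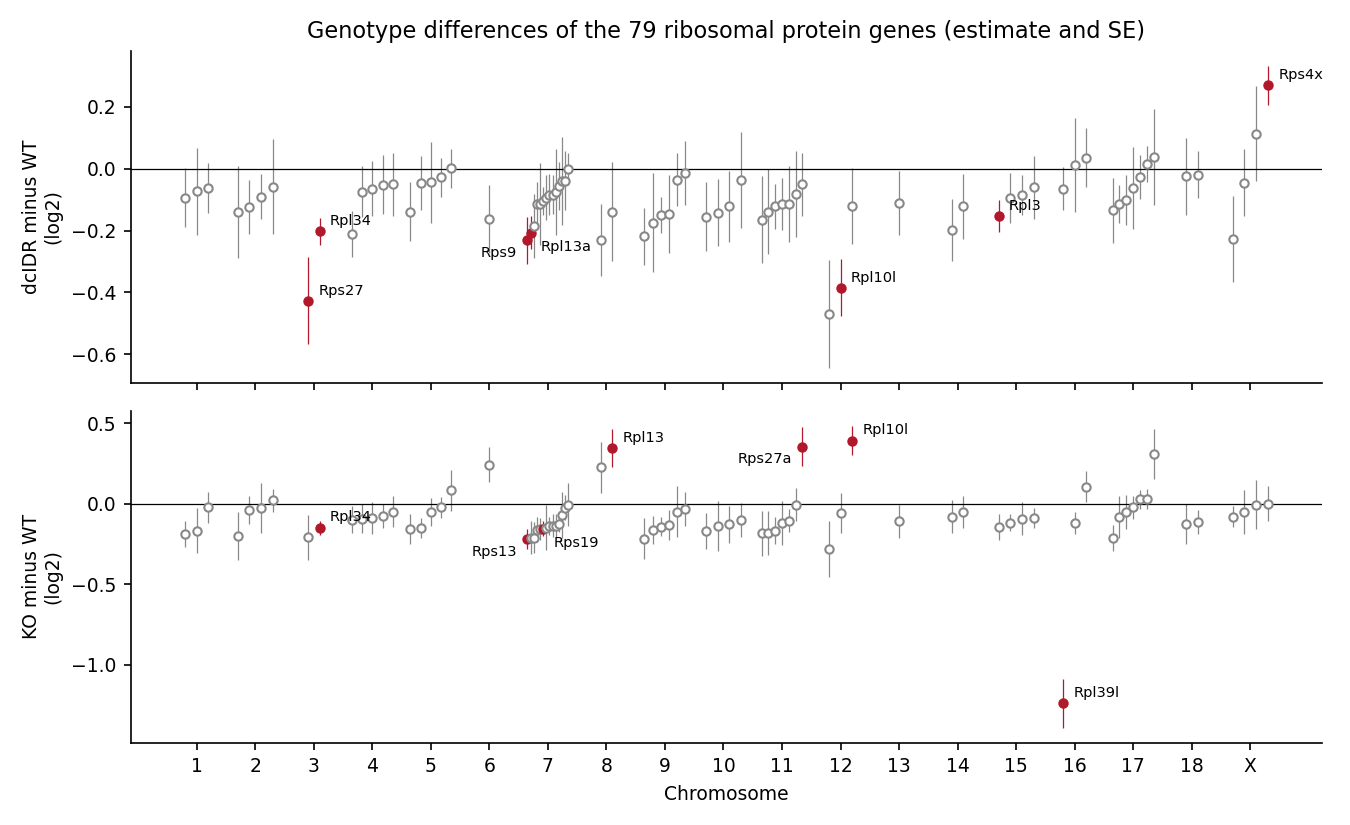
Difference in relative log2 level of each of the 79 ribosomal protein genes, by chromosome, for dcIDR minus WT (top) and KO minus WT (bottom), averaged over 4 labelling times. Points are genes with SE bars and filled points passed at an adjusted p under 0.05; Rpl39l lies at −1.24 in KO, Rpl13 and Rps27a at 0.35, and Rps4x at 0.27 in dcIDR.

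Besides Rpl10l, 5 members were lower in dcIDR than in WT. Rps27 had 1.91, 2.26 and 3.15 (lowest, median, highest) in dcIDR against 2.12, 2.95 and 3.46 in WT, and dcIDR lay wholly below WT at 3 of 4 times. The difference was −0.43 ± 0.14 (adjusted p = 0.0384, limma). Rpl34, whose windows are shown above, had 2.86, 3.16 and 3.67 in dcIDR, 2.73, 3.34 and 3.63 in KO and 2.99, 3.42 and 3.70 in WT. The difference was −0.20 ± 0.04 for dcIDR minus WT (adjusted p = 0.00348) and −0.15 ± 0.04 for KO minus WT (adjusted p = 0.0177). For both genes all ranges overlapped.

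Rps9, which binds early in small subunit assembly, differed by −0.23 ± 0.08 for dcIDR minus WT (adjusted p = 0.0429) and by −0.21 ± 0.08 for dcIDR minus KO (adjusted p = 0.0446). Rpl13a, a member of the GAIT complex that silences mRNAs in human cells, had −0.21 ± 0.05 (adjusted p = 0.0123), and Rpl3 −0.15 ± 0.05 (adjusted p = 0.0478). Rpl3 passed under only 6 of 33 alternatives, Rps9 against WT under 15 of 33 and Rps27 under 22 of 34. Per spike-in read none of these 5 genes passed, with values of −0.26 (Rps27), −0.03 (Rpl34), −0.06 (Rps9), −0.04 (Rpl13a) and 0.02 (Rpl3).

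In KO, Rps13 and Rps19 were lower than in WT. Rps13 had 2.40, 2.61 and 2.80 (lowest, median, highest) in KO against 2.65, 2.78 and 3.00 in WT, and Rps19 had 4.86, 5.21 and 5.49 against 5.10, 5.34 and 5.63. The ranges overlapped, although KO lay wholly below WT at 3 of 4 times for Rps13 and at all 4 for Rps19. Rps13 passed under 31 of 34 alternatives and Rps19 under 21 of 33. Rps13 differed by −0.22 ± 0.06 (adjusted p = 0.0148) and Rps19, the gene most often mutated in Diamond-Blackfan anaemia, by −0.15 ± 0.05 (adjusted p = 0.03, limma). For dcIDR minus KO Rps19 had 0.15 ± 0.05 (adjusted p = 0.0211). That call of Rps19 held under 24 of 33 alternatives. On the spike-in scale Rps13 had 0.09 and Rps19 0.15 for KO minus WT, opposite in sign and not past the threshold, where all tested genes had a median of 0.30.

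Few genes of the named functional groups passed between genotypes, and few of all 79 members did, 7 in each comparison with WT. Of all tested genes 10.6% were higher and 15.1% lower in dcIDR, and 14.8% and 15.6% in KO. No gene of the P stalk, the 5S particle, the decoding and mRNA channel or the exit tunnel passed in dcIDR against WT or KO against WT (limma). The differences ran from −0.17 to −0.04 and from −0.14 to 0.08 in the P stalk, and from −0.23 to −0.02 and from −0.16 to −0.05 at the exit tunnel. Among the 9 Diamond-Blackfan genes only Rps19 passed, in KO. Rps6 had −0.06 for dcIDR minus WT and −0.09 for KO minus WT.

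Lists of other genes of ribosome production are set beside the shares of all tested genes that were higher and lower, 10.6% and 15.1% in dcIDR and 14.8% and 15.6% in KO, both against WT. Of the 55 biogenesis factors 1 was higher and 16 lower in dcIDR than in WT, and 6 were higher and 8 lower in KO. Of the 6 higher in KO, Utp4, Nip7 and Nob1 lie on chromosome 8 and Bms1, Nop2 and Emg1 on chromosome 6. Among transcription factors tied to these promoters Myc had −0.96 ± 0.13 for dcIDR minus WT (adjusted p = 0.000142) and 0.39 ± 0.13 for KO minus WT (adjusted p = 0.0377). Of the 10 such factors 0 were higher and 2 lower in dcIDR, and 1 was higher and 5 lower in KO. Of 16 genes of RNA polymerase I, 18 of mTORC1 signalling and 22 TOP mRNAs of translation factors 0, 1 and 1 were higher and 4, 3 and 4 lower in dcIDR, and 1, 2 and 1 higher and 3, 1 and 3 lower in KO. Of the 78 mitochondrial ribosomal proteins 3 were higher and 8 lower in dcIDR, and 8 higher and 7 lower in KO. Of the chaperones Tsr2, which binds Rps26 and lies on the X chromosome, was higher in dcIDR by 0.59 ± 0.05 (adjusted p = 1.06e-06), and Heatr3, on chromosome 8, was higher in KO by 0.45 ± 0.09 (adjusted p = 0.00185).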

How the data were processed

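The authors deposited, per the file headers and values, log2 ratios of each genotype at 20, 40 or 60 min to its own 10 min value, scaled to spike-in reads with both replicates combined. The tools HISAT2, SAMtools and Picard and the build GRCm39 come per the submitters' processing notes. The counter, its use of strand and of reads that fit several places, and the annotation are not given in any source used. Each value equals a ratio of whole reads per spike-in read times 40000, plus 1, within a relative error of 3e-15, and solving for whole numbers gave reads for all 122679 lines with a value in a genotype (100%). On simulated data the sum over both libraries was right in 100% of 400 genes at each depth. Where reads could be divided between both libraries in several ways, the division closest to the pair's median ratio was kept if within 0.6 log2 and 0.8 from the next; otherwise the group entered as 1 mean value of weight 2. In sums of reads, and in fits without 1 library of such a pair, its reads were divided by the pair's median ratio. Libraries are called first and second by spike-in reads, since replicate numbers cannot be read from the values. Columns with the prefix ki were taken as del-cIDR, the genotype left after KO and WT. The reads are recovered from ratios, so no count test was run.

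Genes whose mean level reached 10 and that lay above 0 in at least 6 libraries were tested (22448) as log2(level + 1), a scale that understates changes of low genes, with limma 3.58.1 in R 4.3.3 on 12 groups and all 24 libraries. Genotype differences average 4 times, slopes are per doubling of minutes, and p-values were adjusted by Benjamini-Hochberg over all tested genes at 0.05. Recovery and fit were tested on simulated data. Alternatives were the spike-in scale, quantile normalization, other centring, a pseudocount of 10, other filters, leaving out 10 min or single libraries, and limma's trend. Names, lengths and overlaps came from GENCODE M21 by gene ID (51948 of 56941 lines matched); promoters are RefSeq's. Named members are those that passed, the 3 with the highest and lowest levels, the 5 with the highest and lowest WT slopes, and fixed functional groups. Members and lists were chosen with earlier results of these data known. Depth sets precision: 3129083 to 22159832 gene reads per library. Repeats were not used here. Some genes are not reported here.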

Additional observations from a re-analysis of the deposited data

Results flagged for a closer look

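Tests of a difference between dcIDR and KO passed for Rpl30 and Rpl29, both large subunit proteins. The slope per doubling of labelling time of Rpl30 differed by 0.28 ± 0.06 for dcIDR minus KO (limma, adjusted p = 0.023), with slopes of 0.16 ± 0.05 in dcIDR and −0.12 ± 0.05 in KO. It passed in 20 of 24 fits that left out a library, with adjusted p-values of 0.00452 to 0.0688, and under 5 of 9 other alternatives.

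The F test of genotype by labelling time called Rpl29 (F = 8.41, adjusted p = 0.0471). Its dcIDR minus KO difference was 0.54, −0.71, −0.26 and 0.08 at 10, 20, 40 and 60 min. It passed in 4 of 24 fits that left out a library (adjusted p = 0.0257 to 0.139) and under 3 of 10 other alternatives.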

How the results depend on the processing

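No paired analysis was possible because the deposited columns carry no replicate numbers. Of the member counts, dcIDR against WT (7) became 0 on the spike-in scale, 4 with quantile normalization, 1 without a filter, 4 with clear splits alone (19 members), 11 with limma's trend and 4 centred on the median member. KO against WT (7) became 4 without a filter, 11 at a mean level of at least 50, 4 without 10 min, 4 with clear splits and 18 with the trend. dcIDR against KO (8) became 2 with clear splits. Of its 8 calls in the main fit, 2 lie on chromosomes 6 and 8 and 1 on chromosome 11. For dcIDR against WT 5755 of the 22448 tested genes passed in the main fit, 1788 on the spike-in scale and 2245 centred on members. For KO against WT 6826 passed in the main fit and 6598 without 10 min.

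Falling slopes in dcIDR (57) became 0 on the spike-in scale, 32 with a pseudocount of 10, 4 without a filter, 5 without 10 min, 9 with clear splits and 0 centred on members. In KO (34) they became 0, 65 with quantile normalization, 6 without a filter, 66 at a level of 50, 6 with clear splits, 65 with the trend and 2 centred on members. In WT (24) they became 0, 68 with quantile normalization, 11 with a pseudocount of 10, 1 without a filter, 61 at a level of 50, 39 without 10 min, 2 with clear splits, 51 with the trend and 1 centred on members. The F test of dcIDR and WT (0) called 7 with the trend. Clear splits leave fewer members. Without 10 min 1252, 1341 and 2305 of the 22448 tested genes fell in dcIDR, KO and WT, against 3089, 1495 and 2151 in the main fit. For quantile normalization, other filters, a pseudocount of 10, clear splits and the trend, the shares of all tested genes are not given here. Member counts under those settings cannot be told from moves of all tested genes. On the spike-in scale only 1, 9 and 6 of the 22448 tested genes fell in dcIDR, KO and WT. Centring on the median member takes out the slope that members share. Neither of these 2 settings could therefore show a fall relative to the median gene. For the rest the cause was not tested. In the fits below that leave out 1 library, the shares of all tested genes are not given here. For 60 members, leaving out a WT library of 60 min does not remove its reads. The library that stays holds reads divided from the sum of both.

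Leaving out single libraries gave 4 to 11 (dcIDR against WT), 4 to 9 (KO against WT) and 6 to 10 (dcIDR against KO). For dcIDR against WT, 11 came without the first 10 min dcIDR library, and 4 without any of 8 others. For KO against WT, 4 came without the second 10 min KO or the first 60 min WT library. Falling slopes ran from 19 to 68 in dcIDR (28 without the first 60 min library), from 11 to 47 in KO (17 without the first 10 min and 13 without the first 60 min library) and from 9 to 29 in WT (13 without the second 40 min, 14 and 11 without either 60 min library). Slope differences and the F test of dcIDR and WT gave 0 to 1, and those of KO and WT 0 throughout.

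Signs turned on the spike-in scale, where nearly all genes rise. KO minus WT became 0.16 for Rpl34, 0.089 for Rps13 and 0.15 for Rps19, and dcIDR minus WT 0.018 for Rpl3. Slopes in dcIDR became 0.94 for Rpl10, 0.69 for Rpl24, 0.59 for Rpl37, 0.92 for Rpl39l, 0.73 for Rpl3l, 0.59 for Rps20, 0.64 for Rps27 and 0.62 for Rps28. In KO they became 0.49 for Rpl10, 0.60 for Rpl10a, 0.60 for Rpl10l, 0.12 for Rpl24, 0.30 for Rpl37, 0.40 for Rpl39l, 0.25 for Rpl3l, 0.19 for Rps20, 0.33 for Rps27 and 0.40 for Rps28. In WT they became 0.53 for Rpl24, 0.47 for Rpl37, 0.41 for Rps20, 0.51 for Rps27 and 0.53 for Rps28. Centred on members, a choice made after seeing the data, slopes became 0.21 for Rpl10a, 0.21 for Rpl10l and 0.0097 for Rps28 in KO and 0.23 for Rpl10 in dcIDR. Quantile normalization gave −0.16 for Rpl10a in dcIDR. Without 10 min, Rpl10a had −0.20 and Rpl3l −0.59 in WT. Rpl39l kept its direction and call for KO minus WT under all 34 alternatives.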
